A study of Neurospora crassa with 12 samples.

Results

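The histone genes described here are 8 of the 9730 genes listed in the series. They were taken by their identifiers, which gave hH1 (NCU06863), hH2A (NCU02437), hH2B (NCU02435), hH3 (NCU01635), hH4-1 (NCU01634), hH4-2 (NCU00212), hH2Az (NCU05347) and hH3v (NCU00145), the gene of the centromeric H3. All 8 were found in every library, and all 8 passed the filter on low counts. The RNA came from mycelium, the network of vegetative hyphae, of the filamentous fungus Neurospora crassa, grown for 16 h at 32 °C in Vogel's medium with 1.5% sucrose. The first strain was N3944 (Δdim-5), labelled "mat x" and carrying Δdim-5::bar+, in which the gene of the histone H3 lysine 9 methyltransferase is replaced by a herbicide resistance marker. The second was NKL2 (ΔLGIIK9het25), labelled mat A and carrying ΔLGIIK9het25::hph, in which a heterochromatic region of linkage group II is replaced by a hygromycin resistance marker. The third was the wild type N150 (WT), labelled mat A. Each strain had 4 libraries of polyadenylated RNA, each genotype was a single strain, and nothing in the labels says whether libraries came from separate cultures. The p-values therefore set a difference between strains against the spread between these libraries, not against that between independent strains of a genotype.

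Core histones H2A, H2B, H3 and H4 form the nucleosome, and the linker histone H1 binds the DNA where it enters and leaves. The variant H2A.Z, encoded by hH2Az, replaces H2A in some nucleosomes, and the centromeric H3 replaces H3 where the kinetochore forms. DIM-5 places H3K9me3, the mark of constitutive heterochromatin, on H3. In animals the main histone messages of S phase end without a polyA tail, whereas those of budding yeast are polyadenylated. Selection for polyA tails means that the values here are levels of tailed transcripts, and whether the tailed share differed between strains was not tested.

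Reads counted in genes ran from 7164944 to 23925695 per library, and the share of reads falling outside genes was 3.62% to 7.29% in Δdim-5, 5.17% to 31.9% in ΔLGIIK9het25 and 8.85% to 36.8% in WT. The dim-5 gene itself had 0 to 2 counts per Δdim-5 library, against 71 to 104 in ΔLGIIK9het25 and 50 to 109 in WT. CPM (counts per megaread) are counts relative to library totals that were scaled by TMM, edgeR's trimmed-mean factors. The hyphal gene hex-1 had 3199 to 4649 CPM in Δdim-5, 3602 to 8033 CPM in ΔLGIIK9het25 and 4693 to 6797 CPM in WT, so that Δdim-5 lay below WT (log2 fold change -0.50, adjusted p = 0.151 in edgeR). The 5 conidial markers (eas, con-6, con-8, con-10 and con-13) were detected in all libraries. Their summed level ran from 472 to 15460 CPM in Δdim-5, from 139 to 1493 CPM in ΔLGIIK9het25 and from 309 to 2413 CPM in WT, with the highest value in Δdim-5 replicate 2. In Δdim-5 against WT all 5 had log2 fold changes above 0, from 0.87 for con-10 to 2.35 for con-13. None of the 5 was called there (adjusted p 0.0988 to 0.272 in edgeR).

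The linker histone gene hH1 was the member that set the strains apart. It encodes the protein that binds linker DNA between nucleosomes. hH1 had 505.6, 400.8, 546 and 484 CPM in the Δdim-5 libraries. It had 974, 928, 918 and 987 CPM in the ΔLGIIK9het25 libraries. It had 707, 729.5, 760 and 816 CPM in the WT libraries. No library of any strain fell within the range of another strain, with Δdim-5 lowest, WT between and ΔLGIIK9het25 highest. The share of all genes tested that separate the strains in this way was not counted. The pattern therefore sets hH1 apart from the other members only. Behind these levels stood 4981 to 15000 hH1 counts per library.

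In Δdim-5 hH1 fell to 484 ± 61.2 CPM, against 753 ± 47.3 CPM in WT (SD, n = 4 each). That was 35.7% lower and -0.64 as a log2 fold change, with a 95% interval of -0.91 to -0.37. The adjusted p was 0.00386 in edgeR's quasi-likelihood test, with Benjamini-Hochberg adjustment over the 8496 genes tested. hH1 was the 1 member of 8 called at an adjusted p under 0.05 in this comparison, in which 16.5% of all genes tested were called, 9% higher and 7.53% lower. It was also the 1 member whose Δdim-5 and WT libraries did not overlap, which held for 20.3% of all genes tested. In bulk RNA, fewer cells with a transcript and less of it per cell cannot be told apart. The sum of the conidial markers was highest in Δdim-5 replicate 2, where eas alone gave 14360 of 15460 CPM. For con-10 that library had 192.8 CPM, below the 250 CPM of ΔLGIIK9het25 replicate 2. Δdim-5 replicate 2 also had the lowest hH1, and without it the log2 fold change of hH1 was -0.56 (adjusted p = 0.0112 in edgeR). Reads outside genes took a smaller share in every Δdim-5 library than in any WT library, so that share and strain cannot be told apart here. A fit with log2 of that share as a term gave hH1 a log2 fold change of -0.71 (adjusted p = 0.0143 in edgeR). Without overlap in the share, that fit cannot separate it from strain. The part of the lower hex-1 level and of the higher conidial markers was not tested.

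Between the mutants the difference in hH1 was larger, with 484 ± 61.2 CPM in Δdim-5 and 952 ± 33.8 CPM in ΔLGIIK9het25. The log2 fold change was -0.98 (SE 0.126, 95% interval -1.25 to -0.70, adjusted p = 0.000194 in edgeR). It was again the only member called of the 8, where 16.7% of all genes were called, 8.83% higher and 7.92% lower.

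In ΔLGIIK9het25 against WT, hH1 lay above WT in 4 of 4 libraries. Its log2 fold change was 0.34 (SE 0.126, 95% interval 0.07 to 0.61), with an adjusted p of 0.186 in edgeR, so it was not called. DESeq2 alone among the alternatives put it under the threshold (adjusted p = 0.0392), and over all alternatives run the adjusted p ran from 0.0392 to 0.358. In this comparison edgeR called 0 of the 8 members, limma-voom 0 and DESeq2 1, while edgeR called 4.32% of all genes, 3.08% higher and 1.24% lower. Over all genes, edgeR called 367, limma-voom 306 and DESeq2 617. The smallest unadjusted p among the members were 0.0182 for hH1 and 0.0215 for hH2Az in edgeR. For hH1 and hH2Az the ΔLGIIK9het25 libraries did not overlap those of WT, which held for 11.6% of all genes tested.

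**Figure D1:**
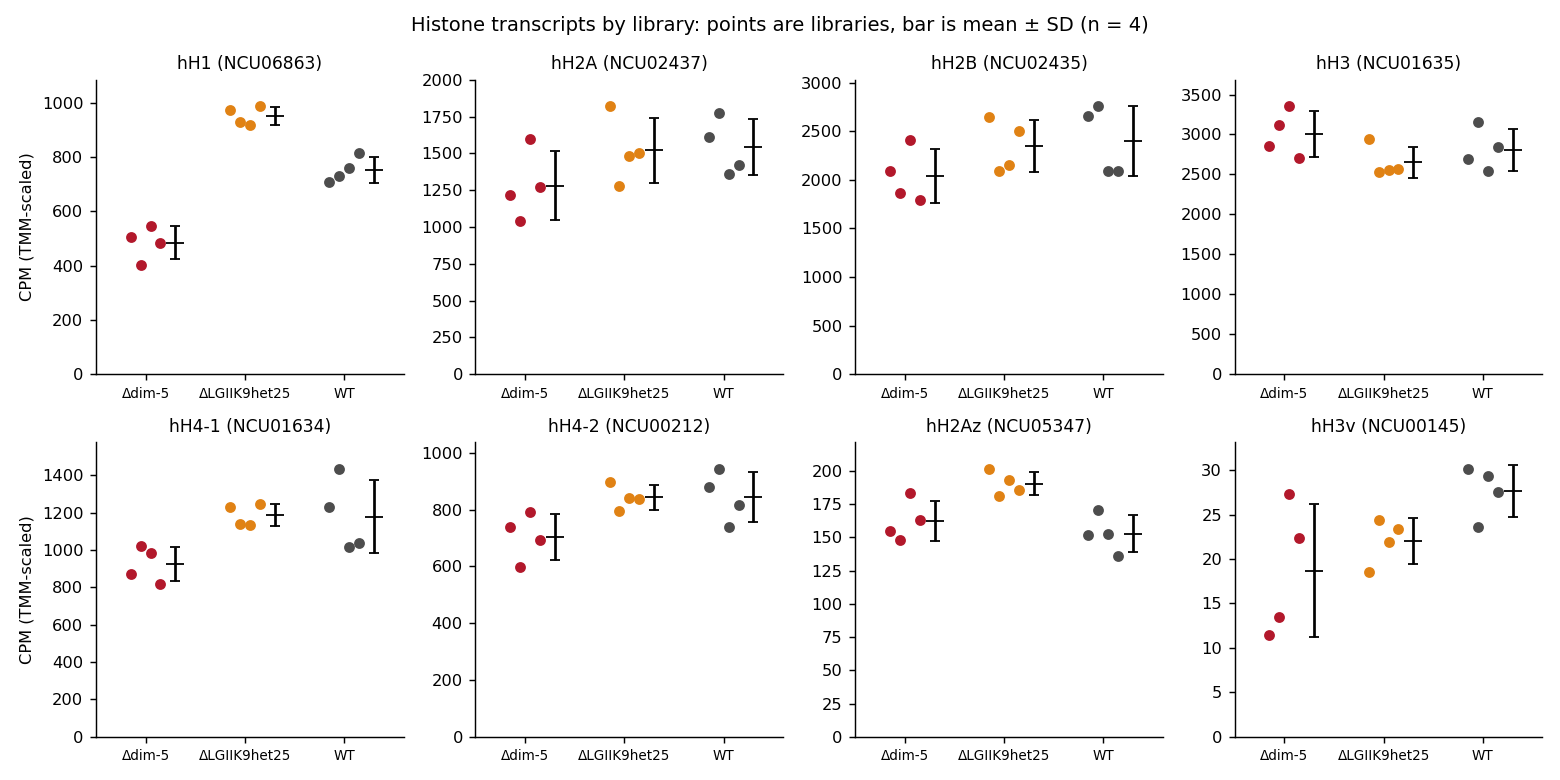
Level of each of the 8 histone genes in every library, in CPM with TMM-scaled totals on axes that start at 0, with points for libraries and a bar for the mean ± SD (n = 4 per strain). In hH1 the strains stand apart, with 400.8 to 546 CPM in Δdim-5, 918 to 987 CPM in ΔLGIIK9het25 and 707 to 816 CPM in WT, while the other genes overlap in Δdim-5 and WT.

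The 5 core histone genes differed less. Their log2 fold changes in Δdim-5 against WT ran from -0.35 for hH4-1 to 0.10 for hH3, and none passed the threshold. Over the 8 members the median log2 fold change was -0.26 in Δdim-5 against WT, with 6 of 8 below 0, where the median of all genes tested was 0.01. The members' median in ΔLGIIK9het25 against WT was -0.01, as was that of all genes. The summed level of all 8 genes was 8621 ± 869 CPM in Δdim-5, 9717 ± 768 CPM in ΔLGIIK9het25 and 9708 ± 1001 CPM in WT (SD, n = 4 each). By exact two-sided permutation tests against WT this gave p = 0.143 for Δdim-5 (adjusted p = 0.286 over the 2 tests) and p = 1 for ΔLGIIK9het25.

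The hH3 gene encodes the protein that DIM-5 methylates. It had 2852, 3113, 3350 and 2702 CPM in Δdim-5, 2942, 2536, 2556 and 2565 CPM in ΔLGIIK9het25, and 2696, 3152, 2544 and 2842 CPM in WT. The ranges overlap in all 3 strains. The log2 fold change of hH3 was 0.10 in Δdim-5 against WT (95% interval -0.17 to 0.37, adjusted p = 0.652 in edgeR) and -0.08 in ΔLGIIK9het25 against WT (95% interval -0.35 to 0.19, adjusted p = 0.839).

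Histone H4 is encoded by hH4-1, which neighbours hH3 in the RefSeq gene order on linkage group II, and by hH4-2 on linkage group III. hH4-1 had 874, 1021, 982 and 821 CPM in Δdim-5, 1233, 1142, 1136 and 1247 CPM in ΔLGIIK9het25, and 1231, 1433, 1017 and 1037 CPM in WT. Its Δdim-5 libraries lay below all ΔLGIIK9het25 libraries, and the highest of them, at 1021 CPM, lay just above the lowest WT library, at 1017 CPM. Against WT the log2 fold change of hH4-1 in Δdim-5 was -0.35 (95% interval -0.66 to -0.05, adjusted p = 0.11 in edgeR), and against ΔLGIIK9het25 it was -0.36 (adjusted p = 0.0972). With library totals alone as the scaling both passed, with adjusted p = 0.0369 and 0.0279. hH4-2 had 737, 599, 790 and 692 CPM in Δdim-5, 899, 795, 840 and 838 CPM in ΔLGIIK9het25, and 880, 942, 737.5 and 816 CPM in WT. Its Δdim-5 libraries also lay below all ΔLGIIK9het25 libraries, as those of 3 members including hH1 did, where 21.3% of all genes had groups without overlap. The log2 fold change of hH4-2 was -0.26 in Δdim-5 against WT (95% interval -0.54 to 0.02, adjusted p = 0.2 in edgeR), and in ΔLGIIK9het25 against WT it was 0.00 (95% interval -0.28 to 0.28).

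The genes of the H2A-H2B dimer lie near each other on linkage group VII, with NCU14153 and NCU02436 between them in the RefSeq order. hH2A had 1216, 1038, 1601 and 1271 CPM in Δdim-5, 1819, 1278, 1482 and 1503 CPM in ΔLGIIK9het25, and 1614, 1776, 1360 and 1422 CPM in WT. hH2B had 2088, 1866, 2410 and 1798 CPM in Δdim-5, 2647, 2094, 2158 and 2501 CPM in ΔLGIIK9het25, and 2662, 2756, 2089 and 2091 CPM in WT. Both genes overlapped between all strains. In Δdim-5 against WT the log2 fold changes were -0.27 for hH2A (95% interval -0.62 to 0.09) and -0.23 for hH2B (95% interval -0.56 to 0.09). The values in ΔLGIIK9het25 against WT were -0.02 for hH2A (95% interval -0.37 to 0.33) and -0.03 for hH2B (95% interval -0.36 to 0.30).

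Of the variants, hH2Az had its highest mean in ΔLGIIK9het25. It had 155, 148, 183 and 163 CPM in Δdim-5, 201, 181, 193 and 185.5 CPM in ΔLGIIK9het25, and 152, 170.5, 152.5 and 136 CPM in WT. All 4 ΔLGIIK9het25 libraries lay above all WT libraries, while Δdim-5 overlapped both other strains. The log2 fold change of hH2Az was 0.32 in ΔLGIIK9het25 against WT (SE 0.122, 95% interval 0.05 to 0.58, adjusted p = 0.204 in edgeR) and 0.09 in Δdim-5 against WT (95% interval -0.17 to 0.35, adjusted p = 0.677).

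The centromeric H3 gene hH3v was the least counted member, with 115 to 554 counts per library. It had 11.5, 13.4, 27.3 and 22.4 CPM in Δdim-5, 18.5, 24.4, 21.9 and 23.3 CPM in ΔLGIIK9het25, and 30.1, 23.6, 29.3 and 27.6 CPM in WT. Replicates 1 and 2 of Δdim-5 lay below every other library, whereas replicates 3 and 4 lay near or within the WT range. The log2 fold change of hH3v was -0.56 in Δdim-5 against WT (SE 0.243, 95% interval -1.09 to -0.04, adjusted p = 0.139 in edgeR). It was called when Δdim-5 replicate 3 was left out (log2 fold change -0.80, adjusted p = 0.0349), which made 2 members called in place of 1. In ΔLGIIK9het25 against WT it was -0.33 (95% interval -0.85 to 0.20, adjusted p = 0.598).

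**Figure D2:**
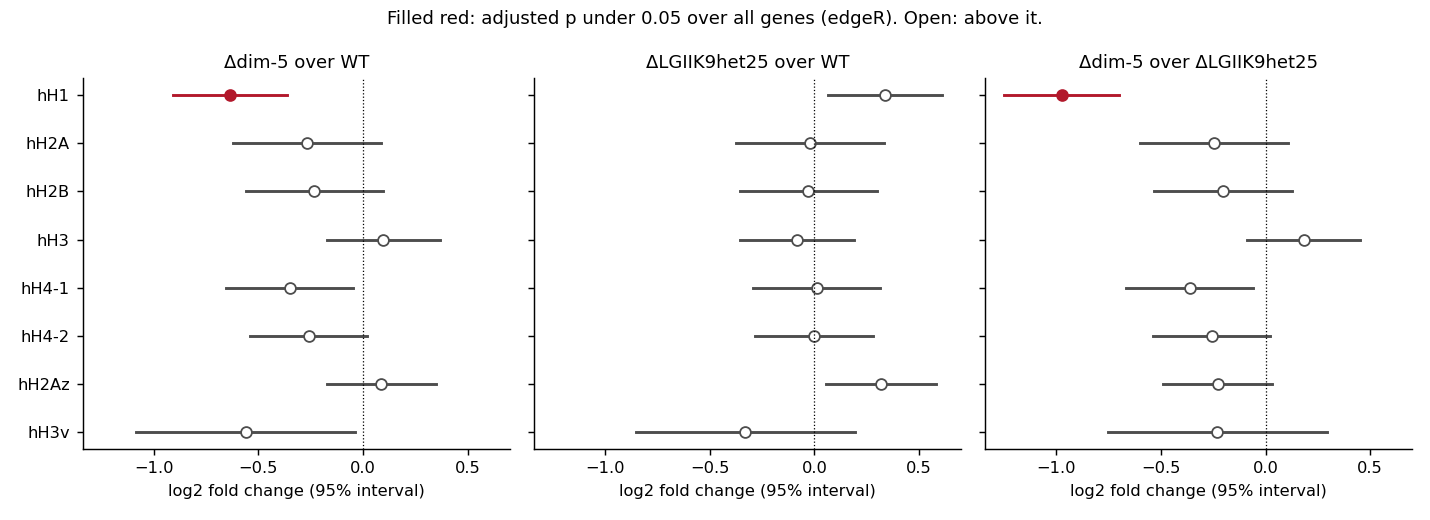
Log2 fold change of each histone gene with its 95% interval in Δdim-5 over WT, ΔLGIIK9het25 over WT and Δdim-5 over ΔLGIIK9het25, from edgeR's fit of all 12 libraries. Filled red marks an adjusted p under 0.05 over all genes tested, which is seen for hH1 in the comparisons of Δdim-5, at -0.64 and -0.98.

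Ratios within a library do not depend on how library totals are scaled. The ratio of hH1 counts to the geometric mean of the 5 core histone genes was tested with 3 other ratios, each mutant against WT, which made 8 comparisons by exact two-sided permutation. An exact permutation test of 4 libraries against 4 cannot fall below p = 0.0286. On the log2 scale the hH1 ratio was -1.43, -1.70, -1.54 and -1.41 in Δdim-5, -0.83, -0.63, -0.72 and -0.69 in ΔLGIIK9het25, and -1.23, -1.33, -0.88 and -0.86 in WT. The strains did not overlap. The difference from WT was -0.44 in Δdim-5 and 0.36 in ΔLGIIK9het25, each at the smallest p of 0.0286 (exact permutation) and at an adjusted p of 0.0762, so neither passed after adjustment over the 8 comparisons. In the mutants the ratio lay on opposite sides of WT, and in WT replicates 1 and 2 stood lower than replicates 3 and 4.

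On the log2 scale hH2Az over hH2A was -2.97, -2.81, -3.13 and -2.96 in Δdim-5, -3.18, -2.82, -2.94 and -3.02 in ΔLGIIK9het25, and -3.41, -3.38, -3.16 and -3.38 in WT. All Δdim-5 libraries lay above WT, with a mean difference of 0.36 (exact permutation p = 0.0286, adjusted p = 0.0762), and in ΔLGIIK9het25 the difference was 0.34 with overlap (exact permutation p = 0.0571, adjusted p = 0.114). The centromeric H3 gene over hH3 differed from WT by -0.75 in Δdim-5 (exact permutation p = 0.0857, adjusted p = 0.137) and by -0.25 in ΔLGIIK9het25 (exact permutation p = 0.257, adjusted p = 0.343). For hH4-2 over hH4-1 the differences were 0.08 in Δdim-5 (exact permutation p = 0.571, adjusted p = 0.653) and -0.02 in ΔLGIIK9het25 (exact permutation p = 0.771, adjusted p = 0.771).

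One further ratio was picked after its values had been seen and is given without a test. For the neighbouring genes hH3 and hH4-1, the log2 ratio of hH3 over hH4-1 was 1.71, 1.61, 1.77 and 1.72 in Δdim-5. It was 1.25, 1.15, 1.17 and 1.04 in ΔLGIIK9het25, and 1.13, 1.14, 1.32 and 1.46 in WT. Every Δdim-5 library lay above every library of the other strains.

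**Figure D3:**
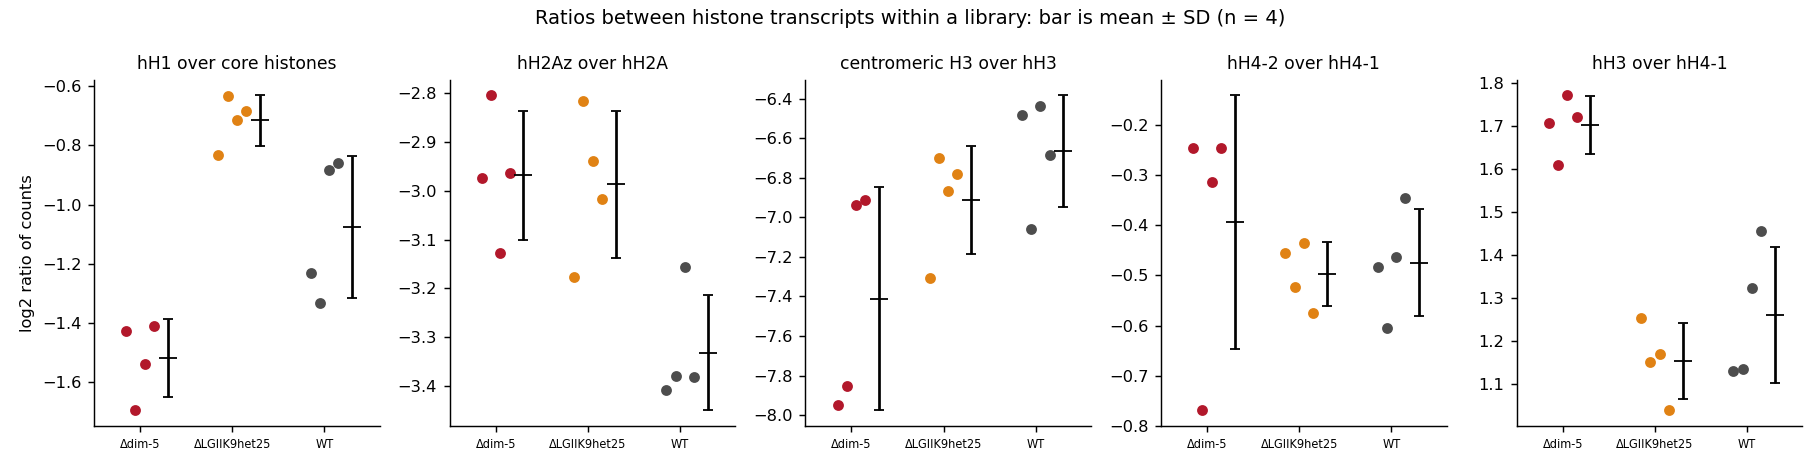
Log2 ratios of counts between histone genes within each library, with points for libraries and a bar for the mean ± SD (n = 4 per strain), on axes that do not start at 0. hH1 over the core histones is lowest in Δdim-5 (mean -1.52), highest in ΔLGIIK9het25 (mean -0.72) and between in WT (mean -1.08), and hH3 over hH4-1, chosen after its values were seen, is highest in Δdim-5 (mean 1.70).

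Most members varied little between libraries of a strain. The pooled SD of log2(CPM + 0.5) within strains was 0.1246 for hH1, 0.1246 for hH3, 0.113 for hH2Az, 0.138 for hH4-2, 0.164 for hH4-1, 0.191 for hH2B and 0.217 for hH2A, against a median of 0.318 over all genes tested. For hH3v it was 0.358. Fewer than 2% of tested genes had a smaller spread than hH1, hH3 or hH2Az, at 1.80%, 1.79% and 1.05%. All tested genes were ranked together whatever their counts, and genes of like counts were not compared.

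The core genes shared part of what spread there was, and hH2Az ran with them. Over the 12 libraries, taken as deviations from the mean of their strain, Pearson's r was between 0.43 and 0.90 in the 10 pairs of core genes, with a median of 0.70. The highest was 0.90 for hH2A and hH4-2, which lie on different linkage groups. hH2A and hH2B had 0.84, and the neighbours hH3 and hH4-1 had 0.74. All 5 core genes were above the strain mean in Δdim-5 replicate 3, ΔLGIIK9het25 replicate 1 and WT replicate 2, and all were below it in ΔLGIIK9het25 replicates 2 and 3 and WT replicate 3. With the core genes the variant hH2Az had r from 0.48 for hH4-1 to 0.85 for hH2A. hH1 followed the core genes less, with r from -0.33 for hH4-1 to 0.52 for hH4-2 and a median of 0.25. These values share the libraries and their scaling, so they are a description.

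**Figure D4:**
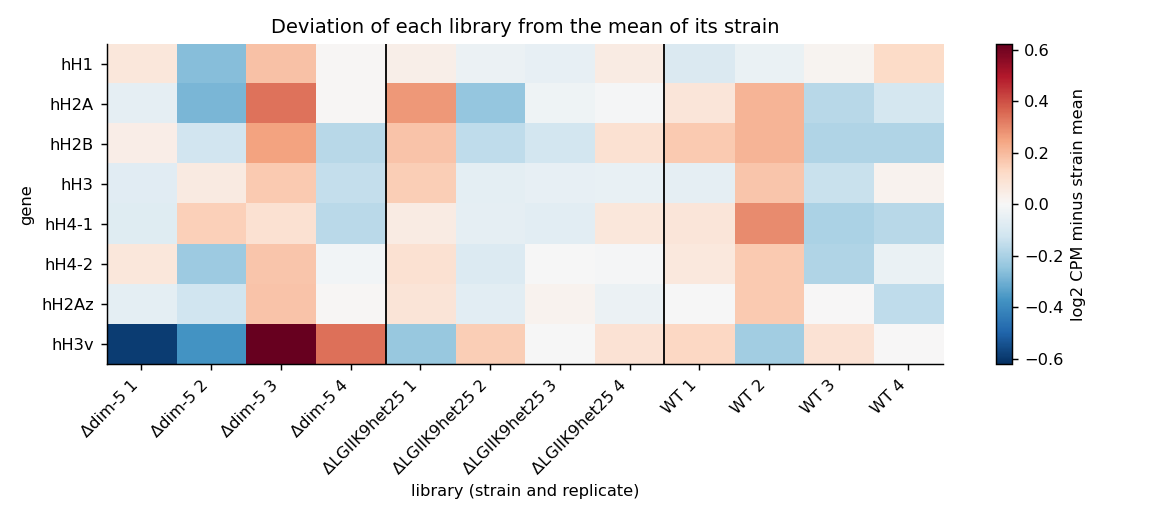
Deviation of each library from the mean of its strain, in log2(CPM + 0.5), for the 8 histone genes (down) and the 12 libraries by strain and replicate (across), with red above and blue below the mean. The 5 core genes run together in Δdim-5 replicate 3, ΔLGIIK9het25 replicate 1 and WT replicate 2, where their mean deviations are 0.20, 0.15 and 0.21, and hH3v has the widest range, from -0.59 to 0.62 in Δdim-5.

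By their RefSeq positions, 4 of the histone genes overlap other genes, and counting ignored strand, so reads in the overlaps cannot be assigned with certainty. These are hH2A with NCU11258, hH2B with NCU02434, hH4-2 with NCU11174 and hH2Az with NCU05345 and NCU05346, whereas hH1, hH3, hH4-1 and hH3v overlap none. NCU02434 had 2.00, 7.86, 5.51 and 4.77 CPM in Δdim-5, 40.3, 41.8, 56.9 and 54.1 CPM in ΔLGIIK9het25, and 39.5, 52.7, 53.6 and 57.1 CPM in WT. It fell in Δdim-5, where every library lay below those of both other strains. Its log2 fold change against WT was -3.32 (SE 0.311) at an adjusted p of 1.07e-05 in edgeR, while hH2B, which it overlaps, had -0.23.

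NCU11258, which overlaps hH2A, had 81.8, 61, 118.3 and 77 CPM in Δdim-5, 102.5, 85.4, 103.5 and 114.5 CPM in ΔLGIIK9het25, and 138, 138, 167 and 146 CPM in WT. It fell in Δdim-5 against WT by 0.80 on the log2 scale (SE 0.185), at an adjusted p of 0.0101 in edgeR. In ΔLGIIK9het25 it was also below WT in all libraries but was not called (log2 fold change -0.53, adjusted p = 0.148). NCU11174 and NCU05345 were not called in any comparison, with log2 fold changes of -0.40 and -0.59 in Δdim-5 against WT (adjusted p = 0.0938 and 0.216 in edgeR). NCU05346 had at most 8 counts per library and did not pass the filter.

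**Figure D5:**
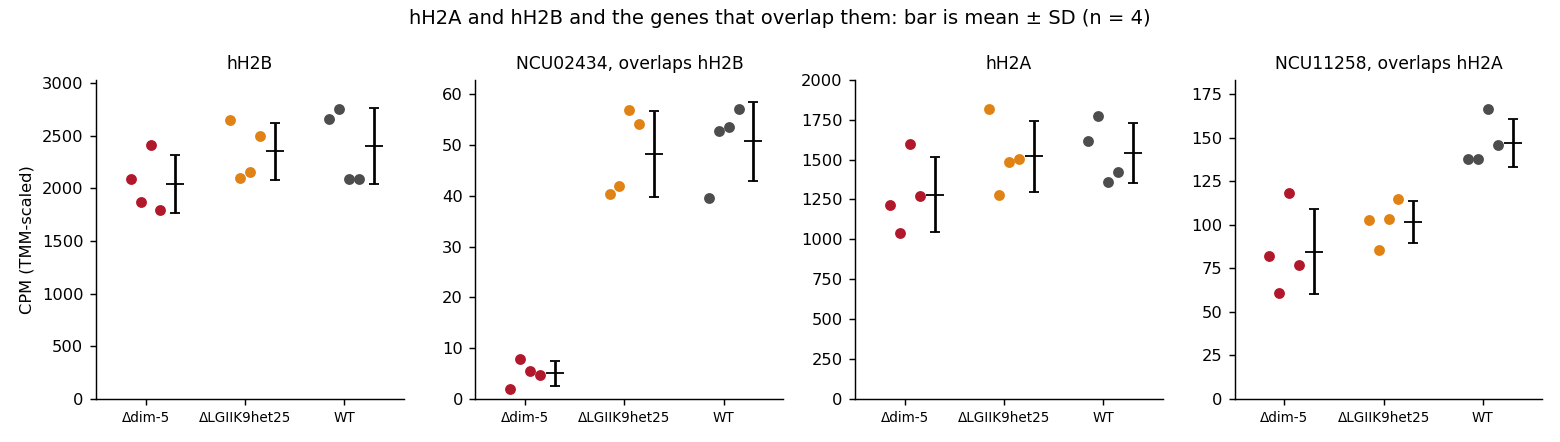
Levels of hH2B and hH2A beside NCU02434 and NCU11258, the genes that overlap them, in CPM with TMM-scaled totals on axes that start at 0, with points for libraries and a bar for the mean ± SD (n = 4 per strain). NCU02434 averages 5.04 CPM in Δdim-5, 48.3 CPM in ΔLGIIK9het25 and 50.7 CPM in WT, while hH2B averages 2041, 2350 and 2400 CPM in these strains.

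The 5 genes closest to hH1 were ranked by Pearson's r of log2(CPM + 0.5) over the 12 libraries, among 5235 genes with a mean of at least 20 CPM. They were NCU00828 (r = 0.98), NCU02404 (r = 0.98), NCU08882 (r = 0.98), NCU05948 (r = 0.97) and NCU07814 (r = 0.96), and none has a symbol in the RefSeq table. These r hold the differences between strains, and over deviations from the strain means they were 0.83, 0.70, 0.70, 0.65 and 0.81. NCU02404 averaged 415 ± 49.1 CPM in Δdim-5, 720 ± 42.2 CPM in ΔLGIIK9het25 and 592 ± 35.7 CPM in WT (SD, n = 4 each). NCU05948 had the widest range, with 7.61 ± 1.89 CPM in Δdim-5, 82.6 ± 21 CPM in ΔLGIIK9het25 and 50.8 ± 4.47 CPM in WT. Like hH1, the 5 were called lower in Δdim-5 against WT and against ΔLGIIK9het25 and were not called in ΔLGIIK9het25 against WT, which their choice by likeness to hH1 favours.

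The mean profile of the 5 core genes was followed most closely by NCU04127 (r = 0.88), NCU16399 (r = 0.88), NCU03211 (r = 0.85), NCU07874 (r = 0.84) and NCU03340 (r = 0.83), also without symbols. None of them was called in any comparison. NCU04127 averaged 282.5 ± 51.3 CPM in Δdim-5, 321 ± 35.5 CPM in ΔLGIIK9het25 and 314 ± 59.3 CPM in WT (SD, n = 4 each).

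Chaperones hand histones to DNA, and 9 genes of a fixed list drawn up for them were found, namely cac-1, cac-2, cac-3, asf-1, nap-1, naf-1, naf-2, fkr-3 and fkr-4. They were matched by symbol alone, and whether fkr-3 and fkr-4 encode histone chaperones was not checked. In Δdim-5 against WT edgeR called 0 of 9, limma-voom 0 and DESeq2 1. The smallest unadjusted p there were 0.00955 for cac-2 and 0.0231 for naf-2 in edgeR. For ΔLGIIK9het25 against WT edgeR called 0, limma-voom 1 and DESeq2 1. The smallest unadjusted p there were 0.00254 for fkr-3 and 0.0156 for naf-2 in edgeR. The medians of the 9 log2 fold changes were -0.06 in Δdim-5 and 0.11 in ΔLGIIK9het25 against WT. Between the mutants 2 of 9 were called lower in Δdim-5, cac-2 and fkr-3. Over all genes tested, edgeR called 16.5% in Δdim-5 against WT, 4.32% in ΔLGIIK9het25 against WT and 16.7% between the mutants (7.92% lower). In Δdim-5 and ΔLGIIK9het25 against WT, DESeq2 called 1821 and 617 genes, and limma-voom 1334 and 306. With 9 genes, these counts set the listed genes apart from other genes in no comparison. The cac-2 gene, which encodes a subunit of chromatin assembly factor CAF-1, had 44, 41.7, 47.6 and 53.8 CPM in Δdim-5, 64.7, 74.3, 65.4 and 67.6 CPM in ΔLGIIK9het25, and 51.1, 61.1, 70.4 and 66.2 CPM in WT. Between the mutants cac-2 had a log2 fold change of -0.54 (adjusted p = 0.0159 in edgeR). In Δdim-5 against WT it had -0.41 (adjusted p = 0.0552), and it passed under DESeq2 (adjusted p = 0.0253), without WT replicate 1 (adjusted p = 0.0293) and without Δdim-5 replicate 4 (adjusted p = 0.0434).

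The fkr-3 gene had 23.9, 37.3, 22 and 20.8 CPM in Δdim-5, 183, 114, 109 and 91 CPM in ΔLGIIK9het25, and 65.4, 4.39, 7.29 and 8.10 CPM in WT. WT replicate 1 stood apart from the other WT libraries. Between the mutants the log2 fold change of fkr-3 was -2.26 (adjusted p = 0.0353 in edgeR), but leaving out 1 library gave adjusted p from 0.048 to 0.085, and the call was kept in 1 of those 8 fits. In ΔLGIIK9het25 against WT it was 2.53 (adjusted p = 0.0555), and 4.22 without WT replicate 1 (adjusted p = 8.52e-05). In Δdim-5 against WT it was 0.27 (adjusted p = 0.819), and 1.96 without WT replicate 1 (adjusted p = 0.00134). The naf-2 gene had log2 fold changes of 0.35 in Δdim-5 and 0.38 in ΔLGIIK9het25 against WT (adjusted p = 0.101 and 0.17 in edgeR). For fkr-4 the log2 fold change was 0.13 in ΔLGIIK9het25 against WT, and for nap-1 it was -0.26 between the mutants. Of a list of DNA replication genes, un-24 and pcn alone were found by symbol, too few to describe as a list.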

How the data were processed

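Libraries were grouped by the strain and replicate in their titles. Each library came as 1 deposited table of whole-number counts for every gene, per the labels. HISAT2, HTSeq and DESeq2 are named in the submitters' processing notes, without versions, and the file names say that counting ignored strand although the kit was directional. The sources used here do not give the genome build or the annotation. The 5 entries that name no gene took 12.6% to 51.4% of a library and were left out.

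Of 9730 genes, 8496 passed edgeR's filterByExpr. Tests used edgeR 4.0.16 in R 4.3.3 (TMM scaling, quasi-likelihood F-test, 1 fit of all 12 libraries, 1 mean per strain, Benjamini-Hochberg adjustment over all genes, with calls below 0.05). The 95% intervals and standard errors come from the F statistic. Ratios used counts plus 0.5 and exact permutation tests (SciPy 1.17.1). Alternatives included DESeq2 1.42.0 and limma-voom (limma 3.58.1). Between libraries of a strain the chi-square over genes was at least 21.1 per degree of freedom, so none was counted as a duplicate.

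The members and lists were chosen with earlier results of these data known. Named genes are all members, dim-5, the 5 genes most like hH1 and the core genes, and from the chaperone list those called or, to make 3 per comparison, those with the largest changes. The overlapping genes were named after their values were seen. The symbol cdt-1, a transporter gene in Neurospora, was taken off the replication list. RefSeq's table (NC12) matched 9729 genes and served for symbols and gene order. Every member had at least 115 counts per library.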

Additional observations from a re-analysis of the deposited data

Results flagged for a closer look

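In 39 groups of 4 libraries, 3 held a library whose gap to the next, as a share of the group's range, exceeded Dixon's 95% critical value, and chance gives about 1 in 20. hH3 had 2942 CPM in ΔLGIIK9het25 replicate 1, against 2536 to 2565 CPM in the other libraries of the strain. The log2 ratio of hH2Az over hH2A was -3.16 in WT replicate 3, against -3.41 to -3.38 in the others. The log2 ratio of hH4-2 over hH4-1 was -0.77 in Δdim-5 replicate 2, against -0.31 to -0.25. That library also had the highest conidial marker sum, 15460 CPM, and their relation was not tested.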

How the results depend on the processing

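The hH1 calls held in the 19 alternatives run for each comparison: the log2 fold change ran from -0.71 to -0.56 in Δdim-5 against WT (adjusted p 1.38e-06 to 0.0154) and from -1.06 to -0.92 between the mutants (adjusted p 2.36e-15 to 0.00137). Of 788 alternative fold changes, ratios and sums, 725 kept direction and, for fold changes, side of the threshold. These include ratios and sums paired by replicate number, which could not turn. Of 114 counts of genes or members called, 104 were within 1.5 times that reported. A ratio with 1 library left out cannot reach p under 0.0571 by exact permutation. Library totals alone put the median of all genes in Δdim-5 against WT at -0.06. They gave 2 members called there and 2 between the mutants, each time with hH4-1 added. Leaving out 1 library gave 1 to 2 members in Δdim-5 against WT. In ΔLGIIK9het25 against WT, DESeq2 called 1 member and 617 genes, a filter at a mean of 5 CPM left 188 genes called, and leaving out 1 library gave 216 to 361, against 367 in edgeR. Between the mutants leaving out 1 library gave 939 to 1358 genes, against 1423. The causes were not tested.

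Signs turned for some values, none of which had passed the threshold as reported. In ΔLGIIK9het25 against WT, hH4-2 (-0.0018) became 0.0099 with RLE scaling, 0.015 with library totals alone, 0.043 with upper-quartile scaling, 0.010 in DESeq2, 0.0033 in limma-voom, 0.018 with the 5 CPM filter, 0.019 with only the strains compared, 0.016 with the reads outside genes as a term and 0.083 without WT replicate 2 and ΔLGIIK9het25 replicate 2, the 2 libraries with most such reads, an alternative chosen after seeing the data. Under that last alternative hH2A became 0.13, hH2B 0.095 and NCU02434 0.011, and fkr-3 in Δdim-5 against WT became -0.057. Upper-quartile scaling gave 0.024 for hH2A and 0.016 for hH2B, and reads outside genes as a term gave 0.0080 for hH2B. Leaving out 1 library gave -0.12 to 0.054 for hH2A, -0.092 to 0.043 for hH2B, -0.053 to 0.12 for hH4-1, -0.061 to 0.055 for hH4-2 and -0.17 to 0.0077 for NCU02434. For fkr-3 in Δdim-5 against WT it gave -0.057 to 1.96. For ΔLGIIK9het25 against WT the difference in the summed level (8.87 CPM) ran from -330.8 to 434.2 CPM, and that in the log2 ratio of hH4-2 over hH4-1 (-0.022) from -0.066 to 0.021.

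Replicate numbers here are those of the sample titles, and those in the file names differ for most libraries. In expression, title numbers paired few mutant libraries with WT. Deviations of same-numbered libraries had r from -0.20 to 0.52, and 2 of 8 mutant libraries correlated best with their own number in WT. The share of reads outside genes followed title numbers in part. For replicates 1 to 4 it was 18.49%, 36.75%, 13.41% and 8.85% in WT, and 13.35%, 31.85%, 6.05% and 5.17% in ΔLGIIK9het25. In Δdim-5 it was 7.29%, 6.41%, 4.76% and 3.62%. Whether libraries of a number were handled together was not tested. The replicate block gave 1504, 371 and 1467 genes called in the 3 comparisons and left the members called at 1, 0 and 1, with hH1 at -0.64 in Δdim-5 against WT (adjusted p = 0.00767 in edgeR). It put fkr-3 in ΔLGIIK9het25 against WT past the threshold (3.10, adjusted p = 0.016), as did DESeq2, limma-voom and upper-quartile scaling. The centromeric H3 gene, with 115 to 554 counts per library and the widest spread, is the member whose values are least precise.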

Other observations

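One more histone gene stands in the RefSeq symbols, hH4v (NCU04338), an H4 variant by its symbol. It had 52.9, 31.4, 34.4 and 25.5 CPM in Δdim-5, 35.9, 44.8, 32.4 and 34.8 CPM in ΔLGIIK9het25, and 35.4, 28.3, 40 and 38.9 CPM in WT. The strains overlapped. Its log2 fold changes were 0.01 in Δdim-5 against WT (95% interval -0.45 to 0.47, adjusted p = 0.979 in edgeR) and 0.05 in ΔLGIIK9het25 against WT (95% interval -0.41 to 0.51, adjusted p = 0.949). It was looked at after the values of the 8 members had been seen.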
